A study of Mus musculus with 6 samples.

Results

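Ribosome biogenesis is the making of ribosomal subunits, which starts in the nucleolus. The 42 genes described here encode proteins of this pathway, parts of the RNA polymerase I machinery that starts it, and the transcription factor Myc. They were chosen by symbol, by their function, but with earlier results of these data known, as were the other gene lists used here. All 42 were found among the 25239 rows of the gene table and passed the filter on low counts, which 14065 rows passed in all. Mouse primary fibroblasts of the lung gave 6 libraries, 3 of senescent and 3 of quiescent cells. Senescent cells, per the labels' protocols, were held for 16 hours with RO3306, an inhibitor of the kinase Cdk1, given Nutlin 3a, which separates p53 from Mdm2, for 48 hours, and then kept in 100 nM BI-2536, an inhibitor of the mitotic kinase Plk1 used to remove cells that still divided, 12 days in all. This description is repeated on the quiescent samples, and the way in which quiescence was brought about is not stated there. Both groups grew in medium with 10% fetal bovine serum under 5% oxygen. The labels used here give no genotype, strain, age or sex. Whether replicates were separate cultures or animals is not stated, so that p-values reflect only the spread among the 6 libraries, which may be technical.

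RNA polymerase I transcribes the ribosomal DNA repeats into one long precursor RNA in the nucleolus. Guided by small nucleolar RNAs held in protein particles of the box C/D and box H/ACA kinds, the precursor is methylated, pseudouridylated, folded and cleaved while the small and large subunits assemble around it. Ribosome production is a main cost of cell growth, Myc is a well known activator of its genes, and disturbed nucleolar assembly is known to stabilise p53 through free ribosomal proteins that bind Mdm2.

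The gene table held 93736593 to 109706025 counts per library, of which the row Rn45s, the ribosomal precursor, with Lars2 and Mir6236 took 79.8% to 82.8%, leaving 18219831 to 21386546 counts for all other genes. Levels are in CPM (counts per 1000000 counts of the gene total) after TMM adjustment, with the ribosomal rows included, so they look low. TMM sets library sizes on the assumption that most genes do not shift. Here 74.5% of the tested genes differed between the groups at an adjusted p under 0.05 in edgeR. The cells' labels were checked on 4 genes, of which 3 rose and 1 fell. Cdkn1a, which encodes the cell cycle inhibitor p21, averaged 65.8 ± 5.26 CPM in senescent and 29.9 ± 0.901 CPM in quiescent libraries (SD, n = 3 each), and Mdm2 averaged 74.3 ± 5.03 CPM in senescent and 38.4 ± 0.807 CPM in quiescent libraries. Trp53 rose by 0.63. Cdkn2a, the gene of the senescence markers p16 and Arf, went the other way, with 65, 54 and 36 counts in senescent libraries, against 106, 126 and 103 in quiescent libraries, and fell by 0.93 ± 0.19 (SE) on the log2 scale (edgeR adjusted p = 0.00099). The summed level of 10 genes of dividing cells lay between 42.7 and 49.8 CPM in senescent libraries, against 178.5 to 183.8 CPM in quiescent libraries, and all 10 fell. Of the 8 fibroblast markers, 5 fell and 2 rose (Dcn by 0.18 and Vim by 0.32; 6 fell and 0 rose under library totals), and Col1a1, at 857 ± 104 CPM in senescent and 967 ± 53.5 CPM in quiescent libraries, did not pass. The list summed to 2151 to 2623 CPM in senescent libraries, against 3855 to 3943 CPM in quiescent libraries, with Col3a1 at 348 CPM on average in senescent and 1342 CPM in quiescent libraries. Of 8 macrophage markers, 4 passed the filter and all 4 rose. The list summed to 10.7 to 14.1 CPM in senescent and 3.90 to 4.15 CPM in quiescent libraries, with Marco at 0 counts in 1 senescent and all 3 quiescent libraries, Ptprc at 0 in 1 quiescent and Adgre1 at 0 in 2 quiescent libraries. None of 6 epithelial markers passed the filter (summed level 0.0401 to 0.165 CPM in senescent and 0.188 to 0.312 CPM in quiescent libraries), and 6 endothelial markers summed to 3.43 to 5.00 CPM in senescent and 5.14 to 5.67 CPM in quiescent libraries. Of the 4 endothelial markers tested, Cdh5 rose by 2.32, Tek fell by 2.67 and 2 did not pass. The part of these cell type differences in the results was not tested. In such bulk libraries fewer cells of a type and less RNA per cell cannot be told apart.

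Ribosome biogenesis genes were higher in senescent cells almost throughout. Of the 42 genes, 38 rose, 3 fell and 1 did not pass in edgeR's quasi-likelihood test at an adjusted p under 0.05 (Benjamini-Hochberg, over all tested genes), with a median log2 fold change of 0.74. Among all 14065 tested genes, 36.7% rose and 37.8% fell, and the median was -0.02. A point estimate beyond 2-fold was found for 11 of the 42 genes, all higher, where 11.0% of all tested genes lay beyond 2-fold higher. Tested directly against a 1.5-fold change, 24 rose and 0 fell, where 15.2% and 17.5% of all tested genes did so. Together the 42 genes held 0.507%, 0.494% and 0.536% of the non-ribosomal counts in senescent replicates 1, 2 and 3, against 0.355%, 0.367% and 0.368% in quiescent replicates 1, 2 and 3. The groups do not overlap in this share, which is scaled by the non-ribosomal total of each library in place of a TMM factor. The 3 senescent libraries lay above the 3 quiescent ones for 39 of the 42 genes and below them for 2, where 38.4% and 39.9% of all tested genes did so and 78.3% did not overlap in either direction.

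**Figure D1:**
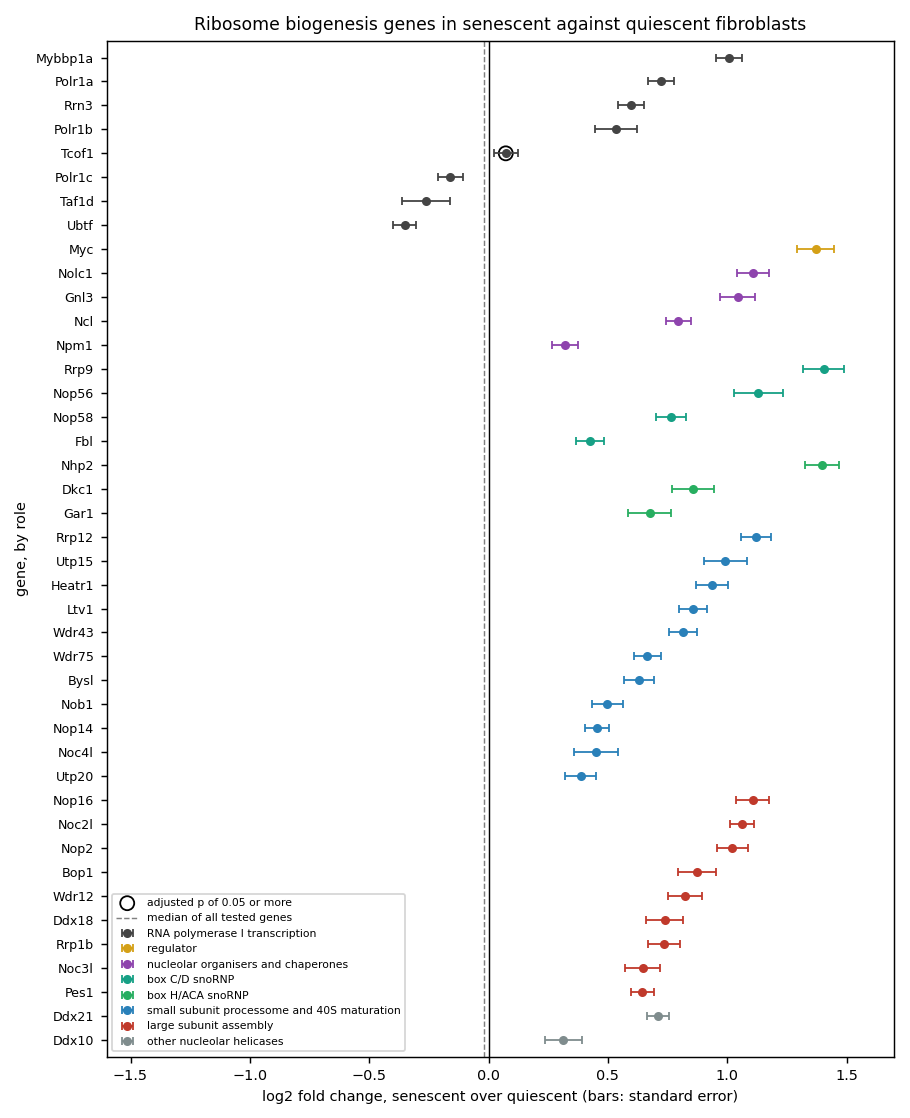
Log2 fold change of senescent over quiescent libraries for each of the 42 genes, grouped by role; points are edgeR estimates and bars standard errors, and the dashed line is the median of all tested genes (-0.02). All roles other than RNA polymerase I transcription lie wholly to the right of 0, and Ubtf, Taf1d and Polr1c lie to its left.

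The machinery of RNA polymerase I did not move as a block: of 8 genes, 4 rose, 3 fell and Tcof1 did not pass. Polr1a encodes the largest subunit of the enzyme. It had 20.2, 18.7 and 20.4 CPM in senescent replicates 1, 2 and 3, against 11.8, 12.4 and 11.8 CPM in quiescent ones, a log2 fold change of 0.72 ± 0.05 (SE, the standard error of the fit; adjusted p = 2.4e-07 in edgeR). All senescent libraries lay above all quiescent ones. Polr1b, the second largest subunit, had 4.19, 4.06 and 4.95 CPM in senescent and 3.08, 3.06 and 2.99 CPM in quiescent libraries (log2 fold change 0.53 ± 0.09 SE), a call lost under library totals (0.24). Rrn3 encodes the initiation factor TIF-IA, which joins the enzyme to the promoter complex and is known to be set by growth signals. It had 17.8, 18.9 and 19.6 CPM in senescent libraries, against 12.8, 12.3 and 12.2 CPM in quiescent libraries (log2 fold change 0.60 ± 0.05 SE). Both Polr1b and Rrn3 were higher in every senescent library than in any quiescent one. Mybbp1a, which encodes a nucleolar protein known to bind Myb and p53, had the largest increase of these 8 genes, with 64.7, 63.0 and 70.8 CPM in senescent and 32.4, 33.0 and 33.4 CPM in quiescent libraries (log2 fold change 1.01 ± 0.05 SE).

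Ubtf was the clearest exception. It encodes UBF, the architectural factor that coats active ribosomal DNA. Its level was 32.7, 32.5 and 34.3 CPM in senescent replicates 1, 2 and 3, against 41.0, 42.3 and 43.7 CPM in quiescent ones. All senescent libraries lay below all quiescent ones, and the gene fell by 0.35 ± 0.05 (SE) on the log2 scale (adjusted p = 3.5e-05 in edgeR). Polr1c, a subunit that RNA polymerase I shares with RNA polymerase III, had 9.66, 9.68 and 9.98 CPM in senescent and 11.0, 10.7 and 11.2 CPM in quiescent libraries (log2 fold change -0.16 ± 0.05 SE, adjusted p = 0.016 in edgeR). That call was lost without senescent replicate 1 (adjusted p = 0.058) or quiescent replicate 3 (0.062) and in DESeq2 (0.082). Taf1d, a subunit of the promoter selectivity factor SL1, had 8.48, 7.02 and 9.28 CPM in senescent libraries, against 10.4, 10.4 and 8.97 CPM in quiescent libraries. Here the groups overlap, the log2 fold change was -0.26 with a standard error of 0.10 (adjusted p = 0.035 in edgeR), and the call was lost without senescent replicate 1 or 2 or quiescent replicate 1 or 2 (adjusted p 0.064, 0.097, 0.11 and 0.11). Tcof1, which encodes treacle, a partner of UBF that is mutated in Treacher Collins syndrome, had 11.7, 11.7 and 11.9 CPM in senescent and 11.2, 11.3 and 11.1 CPM in quiescent libraries (log2 fold change 0.07 ± 0.05 SE, adjusted p = 0.20 in edgeR). Its sign turned with the scaling, to -0.23 under library totals, where it passed as lower, and to -0.02 under upper quartile factors.

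**Figure D2:**
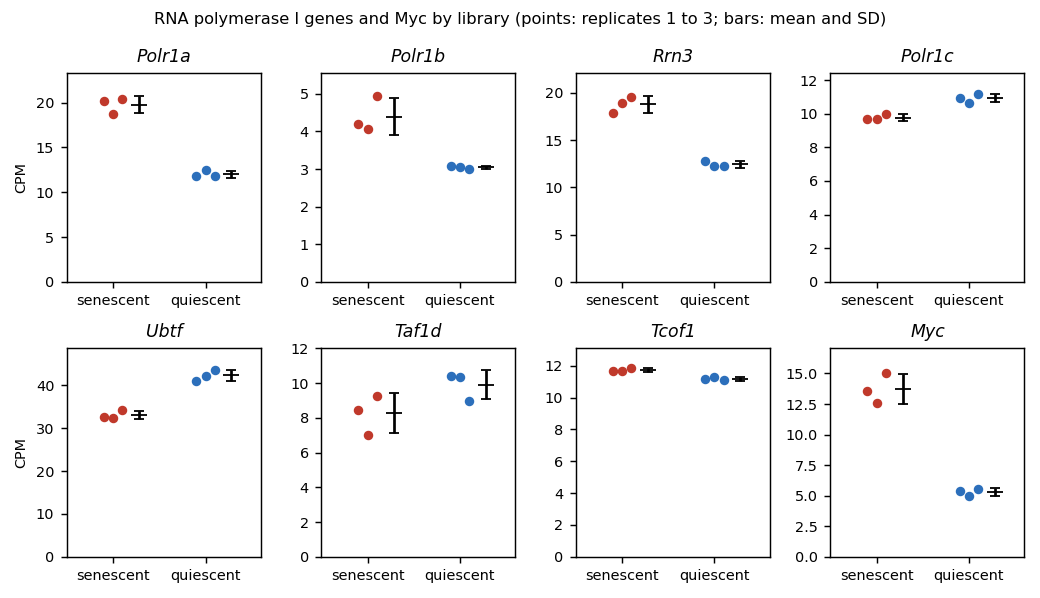
CPM of 7 RNA polymerase I genes and Myc in each library, senescent at the left of each panel and quiescent at the right; points are libraries, bars the mean and SD of 3, and all axes start at 0. Polr1a, Polr1b, Rrn3 and Myc are higher in every senescent library, Polr1c and Ubtf lower in every one, Taf1d overlaps, and Tcof1 differs by a log2 fold change of only 0.07.

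Myc rose by 1.37 ± 0.08 (SE) on the log2 scale (adjusted p = 2.1e-08 in edgeR). This transcription factor binds the E-box sequence CACGTG with its partner Max. Its level was 13.6, 12.6 and 15.0 CPM in senescent libraries, against 5.41, 4.95 and 5.58 CPM in quiescent libraries, and the groups lie far apart. Of 13 other genes of the Myc network, 7 rose and 4 fell. Under library totals 5 rose and 6 fell. Max had a log2 fold change of 0.13, which passed (edgeR adjusted p = 0.018), but it turned to -0.17 under library totals (0.071) and did not pass under upper quartile factors (0.04, adjusted p = 0.45) or without quiescent replicate 2 (0.055) or 3 (0.074). The antagonist genes Mxd3 (-2.35 ± 0.11 SE) and Mxd4 (-1.31 ± 0.08 SE), whose products compete with Myc for Max, were the largest decreases, and Zbtb17 (1.12), which encodes the repressive Myc partner Miz1, and the antagonist gene Mxi1 (0.86) the largest increases above the level set for naming. Mycl, outside that rule and named after its values were seen, had 90, 79 and 63 counts in senescent libraries, against 9, 8 and 8 in quiescent libraries. Of 15 genes known as Myc targets outside the nucleolus, 13 rose and 1 fell, with a median of 0.83. Odc1, the polyamine synthesis gene, averaged 316 ± 76.5 CPM in senescent and 20.4 ± 0.428 CPM in quiescent libraries (SD, n = 3 each; log2 fold change 3.95), Tfrc, for the transferrin receptor, rose by 1.91, and Cdk4 fell by 0.23.

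The sequence around the start sites shows which genes of the group carry the letters that Myc is known to bind. RefSeq promoter windows of 300 bases (250 before and 50 after the start, build GRCm38.p6) were found for 36 of the 42 genes; Bop1, Fbl, Myc, Npm1, Rrp12 and Tcof1 had no entry. The motif CACGTG, which reads the same on both strands, stood in a window of 7 of these 36 genes (19.4%), against 11.6% of the 11053 tested genes with an entry. Counted by window, it stood in 7 of the 45 windows of these genes (15.6%), against 7.15% of all 32851 windows. The 8 matches are shown with up to 10 bases on each side, the motif in capitals, each read 5′ to 3′ on the strand of its gene, since they are the whole set of matches in the group.
Ltv1: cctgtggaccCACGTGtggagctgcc
Mybbp1a: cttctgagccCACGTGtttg
Nop2: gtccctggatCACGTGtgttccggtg
Pes1: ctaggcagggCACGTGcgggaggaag
Rrn3, first match: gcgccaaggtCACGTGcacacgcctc
Rrn3, second match: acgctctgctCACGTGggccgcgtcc
Utp20: gcactaactaCACGTGaggaaaa
Wdr43: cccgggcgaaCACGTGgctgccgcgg
The first base of the motif lies 29 bases into the transcript for Ltv1, 41 for Mybbp1a, 3 for Pes1, 38 for Utp20 and 18 for Wdr43, counting the start as 1, and at -60 for Nop2 and at -215 and -48 for Rrn3. So 5 of the 8 matches begin after the start, where 13.9% of 2589 matches in all windows do. The whole windows of the 2 highest expressed of these genes, Mybbp1a (chr11:72441077-72441376, plus strand) and Pes1 (chr11:3963725-3964024, plus strand), are shown for the wider context, with the motif in capitals.
Mybbp1a: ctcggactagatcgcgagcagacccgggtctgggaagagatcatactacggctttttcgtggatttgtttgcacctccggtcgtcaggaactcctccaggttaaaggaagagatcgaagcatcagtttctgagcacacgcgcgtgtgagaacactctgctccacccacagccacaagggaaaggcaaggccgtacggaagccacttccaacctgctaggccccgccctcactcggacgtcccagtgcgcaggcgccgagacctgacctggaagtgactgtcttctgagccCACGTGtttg
Pes1: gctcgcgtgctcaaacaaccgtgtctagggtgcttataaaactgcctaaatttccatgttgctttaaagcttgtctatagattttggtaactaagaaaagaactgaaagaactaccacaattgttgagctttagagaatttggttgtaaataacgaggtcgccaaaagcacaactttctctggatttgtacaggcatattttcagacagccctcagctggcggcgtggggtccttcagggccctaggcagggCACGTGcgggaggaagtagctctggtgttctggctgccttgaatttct
The 7 genes with the motif had log2 fold changes of 0.39 to 1.02 with a median of 0.81, and the 29 without it -0.35 to 1.40 with a median of 0.73. These ranges overlap, and a match is a description of letters only.

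All 4 genes of nucleolar organisers and chaperones rose. Ncl encodes nucleolin, one of the most abundant nucleolar proteins, and was the highest of the 42 genes in CPM and per length. It had 300.4, 291 and 309 CPM in senescent replicates 1, 2 and 3, against 165, 181 and 173 CPM in quiescent ones (log2 fold change 0.80 ± 0.05 SE), and ranked 69 by mean CPM among all tested genes. Nolc1, which encodes the Nopp140 chaperone of small nucleolar particles, had 34.6, 33.0 and 39.1 CPM in senescent and 15.6, 17.5 and 16.4 CPM in quiescent libraries, and rose by 1.11 ± 0.07 (SE) on the log2 scale. Gnl3, which encodes nucleostemin, a nucleolar GTPase known from stem and dividing cells, had 22.0, 20.4 and 25.1 CPM in senescent libraries, against 10.9, 10.7 and 11.2 CPM in quiescent libraries (log2 fold change 1.04 ± 0.07 SE). In each of these 3 genes the groups lie apart. Npm1, which encodes the histone chaperone nucleophosmin, rose least, with 30.8, 28.8 and 33.0 CPM in senescent and 24.0, 25.1 and 25.1 CPM in quiescent libraries (log2 fold change 0.32 ± 0.06 SE). Npm1 is known for its many processed copies in the genome, so its counts are uncertain, and it did not pass under library totals (0.02, edgeR adjusted p = 0.82).

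Genes for proteins of both kinds of small nucleolar particle were higher. Of the box C/D genes, which act in 2′-O-methylation of ribosomal RNA, all 4 rose, with a median log2 fold change of 0.95. Rrp9, a protein of the U3 particle needed for the first cleavages, had the largest change of the 42 genes. Its level was 9.74, 9.43 and 11.7 CPM in senescent replicates 1, 2 and 3, against 3.84, 3.81 and 4.02 CPM in quiescent ones (log2 fold change 1.40 ± 0.09 SE, adjusted p = 4.2e-08 in edgeR). Nop56, a core protein, had 29.1, 26.4 and 36.0 CPM in senescent libraries, against 14.1, 13.5 and 14.2 CPM in quiescent libraries (log2 fold change 1.13 ± 0.10 SE). Its partner Nop58 rose by 0.76 on the log2 scale. Fbl, which encodes the methyltransferase fibrillarin, rose by 0.42, but did not pass under library totals (0.13, edgeR adjusted p = 0.21). Snu13, the gene of the remaining core protein and outside the 42, rose by 0.40 and did not pass under library totals (0.10); it was named after its values were seen.

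Of the box H/ACA genes, whose products make pseudouridine in ribosomal RNA and also hold the telomerase RNA, all 3 rose. Nhp2 had 18.5, 18.2 and 21.4 CPM in senescent and 7.03, 7.68 and 7.37 CPM in quiescent libraries, a log2 fold change 1.40 ± 0.07 SE (adjusted p = 9.8e-09 in edgeR). Dkc1, the gene of the pseudouridine synthase dyskerin, had 11.7, 10.5 and 13.8 CPM in senescent libraries, against 6.63, 6.74 and 6.50 CPM in quiescent libraries (log2 fold change 0.86 ± 0.09 SE). Gar1 had 10.4, 10.0 and 12.8 CPM in senescent and 6.75, 6.92 and 7.16 CPM in quiescent libraries (log2 fold change 0.67 ± 0.09 SE). The groups lie apart in all 3 genes. Of 12 further genes of these particles and their assembly, 8 rose and 2 fell (median 0.42; 5 and 2 under library totals, median 0.13), with Shq1, an assembly chaperone of dyskerin, at 1.21, the helicase gene Ruvbl1 at 0.84, Pih1d1 at -0.76 and Coil at -0.25. The call of Coil was lost without senescent replicate 1 or 2 or quiescent replicate 1 or 2 (adjusted p 0.078, 0.057, 0.14 and 0.062 in edgeR) and in DESeq2 (0.14).

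All 11 genes of the small subunit processome and of 40S maturation rose, with log2 fold changes of 0.39 to 1.12. Rrp12, which escorts pre-40S particles, had 10.7, 10.6 and 11.6 CPM in senescent libraries, against 5.11, 5.02 and 5.02 CPM in quiescent libraries (log2 fold change 1.12 ± 0.06 SE). Utp15 had 12.2, 10.6 and 13.9 CPM in senescent and 6.15, 5.95 and 6.34 CPM in quiescent libraries (log2 fold change 0.99 ± 0.09 SE). Heatr1 had 16.8, 15.5 and 18.6 CPM in senescent and 8.91, 8.96 and 8.77 CPM in quiescent libraries (log2 fold change 0.94 ± 0.07 SE). Utp15, Heatr1 and Wdr43 belong to the early module that in human and yeast cells is also tied to transcription of ribosomal DNA, and Wdr43 rose by 0.81. Ltv1, whose product is released late from the 40S particle, rose by 0.86, Wdr75 by 0.66, Bysl by 0.63 and Nob1, the endonuclease that finishes the small subunit's ribosomal RNA, by 0.50. The smallest increases were those of Nop14 (0.45), Noc4l (0.45) and Utp20 (0.39). Those of Utp20, Nop14, Noc4l and Nob1 were lost under library totals, with log2 fold changes of 0.09, 0.16, 0.15 and 0.20. In all 11 genes the lowest senescent library lay above the highest quiescent one.

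All 9 genes of large subunit assembly rose, within a narrow range of log2 fold changes from 0.64 to 1.11. Nop16 (8.40, 8.75 and 9.38 CPM in senescent libraries, against 3.89, 4.12 and 4.32 CPM in quiescent libraries) rose by 1.11. Noc2l, which encodes an inhibitor of histone acetylation with a part in large subunit assembly, had 23.8, 24.0 and 25.2 CPM in senescent and 11.5, 11.4 and 12.1 CPM in quiescent libraries (log2 fold change 1.06 ± 0.05 SE, adjusted p = 5.0e-09 in edgeR). Nop2, a methyltransferase known as the proliferation antigen p120, had 22.3, 23.2 and 25.0 CPM in senescent and 11.0, 11.1 and 12.6 CPM in quiescent libraries (log2 fold change 1.02 ± 0.07 SE). The 3 genes of the PeBoW protein complex, which is needed to process the ribosomal RNA of the large subunit, rose by 0.87 (Bop1), 0.82 (Wdr12) and 0.64 (Pes1). Noc3l rose by 0.65, Rrp1b by 0.73 and the helicase gene Ddx18 by 0.74. Of the other nucleolar helicases, Ddx21 had 66.0, 66.0 and 68.5 CPM in senescent and 39.8, 40.9 and 42.1 CPM in quiescent libraries (log2 fold change 0.71 ± 0.05 SE). Ddx10 rose least, with 9.98, 10.4 and 9.64 CPM in senescent and 8.19, 8.81 and 7.14 CPM in quiescent libraries (log2 fold change 0.31 ± 0.08 SE), and its call was lost under library totals (0.01). Exons of Noc2l and Bysl overlap exons of the opposite-strand genes Samd11 (20.9% of the exonic length) and Ccnd3 (9.37%). Whether counting used strand is not stated in the labels used here, so these counts are uncertain. No other gene of the 42 shared over 6% of its exons with genes that have a row in the gene table, small RNAs left aside.

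**Figure D3:**
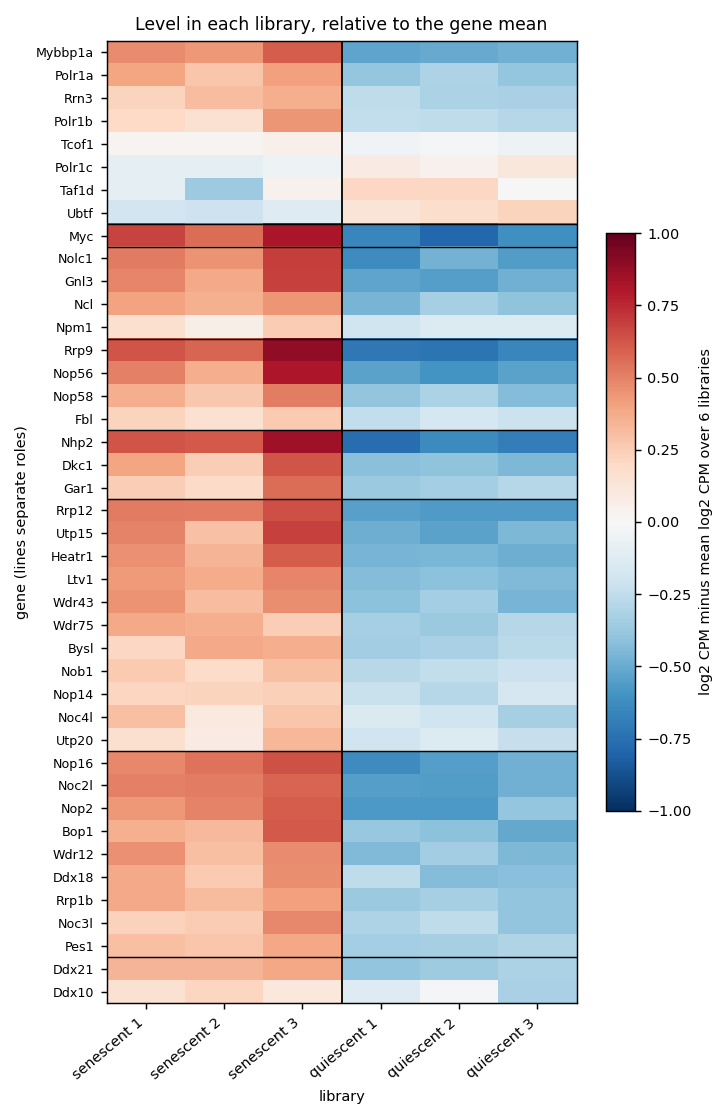
Level of each of the 42 genes (rows, in the same role order) in each library (columns, senescent left of the line), as log2 CPM minus the mean log2 CPM of that gene over 6 libraries; red is higher. Rows are red across the senescent libraries except those of Ubtf, Polr1c and Taf1d, and senescent replicate 3 is the deepest red in most rows.

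The 42 genes also varied within the senescent group. Senescent replicate 3 held the highest senescent level for 38 of 42 genes and senescent replicate 2 the lowest for 31. The share of all tested genes in this order was not counted, so the order cannot be called a trait of the 42. The summed level of the 42 genes was 1039, 1006 and 1113 CPM in senescent replicates 1, 2 and 3, against 627, 652 and 643 CPM in quiescent ones. The median difference of the 42 genes between one library and the mean of the other libraries of its group was 0.12 on the log2 scale for senescent replicate 3 and -0.11 for senescent replicate 2, and stayed within 0.03 of 0 for senescent replicate 1 and within 0.01 for the quiescent libraries. Taken without sign, the median difference in senescent replicate 3 was 0.12 for the 42 genes and 0.11 for all genes. In senescent replicate 2 it was 0.11 and 0.086. The size of the spread was thus near that of all genes. Its direction over all genes was not summarised, so whether the shared direction is particular to the 42 genes was not tested. Without senescent replicate 3, 38 rose and 3 fell with a median of 0.71. The same library had the highest Odc1 level, 404 CPM, against 274 and 269 CPM in senescent replicates 1 and 2.

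Exon length here joins the exons of all transcripts of a gene in the basic GENCODE M21 annotation, so long transcripts lower a gene's value. Per kilobase of this length, Ncl led both groups with 36.6 ± 1.09 CPM per kb in senescent and 21.1 ± 0.975 CPM per kb in quiescent libraries (SD, n = 3 each). In senescent libraries Nhp2 (18.6 ± 1.72), Nop56 (16.0 ± 2.59), Npm1 (15.2 ± 1.04) and Mybbp1a (15.2 ± 0.944 CPM per kb) followed, and these 4 neighbours differ by about as much as their SDs. In quiescent libraries Npm1 (12.2 ± 0.302), Ddx21 (8.66 ± 0.246), Polr1c (8.10 ± 0.197) and Taf1d (7.93 ± 0.653 CPM per kb) followed, the last 2 within their SDs of each other. Ubtf ranked 20 of 42 in senescent and 9 in quiescent libraries. The lowest in both groups was Wdr12, at 0.580 ± 0.0368 CPM per kb in senescent and 0.328 ± 0.0125 CPM per kb in quiescent libraries. That place rests on its joined length of 10613 bases. Without division by length it averaged 6.16 CPM in senescent libraries, above Noc4l at 2.97 CPM. The genes lie on 19 chromosomes, with at most 5 on any one.

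Other genes of the pathway, listed by function beside the 42, moved likewise but less. Of 143 tested, 111 rose and 11 fell, with a median log2 fold change of 0.46, where 36.7% and 37.8% of all tested genes rose and fell. Under library totals 61 rose and 19 fell. Of 36 further small subunit processome genes, 32 rose and 0 fell in edgeR (4 did not pass), with Utp4 at 1.11 and Pwp2 at 1.04. At an unadjusted p under 0.05 the number fallen was also 0, and Rrp36 had the one estimate below 0 (-0.05). Utp4 had 20.1, 19.6 and 23.3 CPM in senescent libraries, against 9.71, 9.95 and 9.54 CPM in quiescent libraries. Under library totals 17 of them rose and 1 fell. Of 51 further large subunit genes, 45 rose and 4 fell, with a median of 0.56 (31 and 6 under library totals). Mrto4, a placeholder for a ribosomal stalk protein, rose by 1.43 and Eif6, which keeps immature large subunits from joining small ones, by 1.29, while Nsa2 (-0.38) and Nop53 (-0.34), a binder of 5S particles, fell. Of 8 late 40S genes, 6 rose and 1 fell (3 and 1 under library totals), with Tsr1 at 0.90, the kinase gene Riok3 at 0.84 and Tsr2 at -0.24.

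Among 18 further genes of RNA polymerase I, including subunits it shares with other polymerases, 11 rose and 3 fell (median 0.32), and 4 rose and 4 fell under library totals. Cd3eap, now named Polr1g, rose by 0.95 and Polr1e by 0.66; both encode subunits specific to RNA polymerase I. Taf1b, of the selectivity factor SL1 (-0.38), and Sirt7, a deacetylase that activates ribosomal DNA (-0.30), fell, although Taf1b did not pass without quiescent replicate 2 (adjusted p = 0.050 in edgeR) and Sirt7 did not pass without senescent replicate 1 (0.061) or quiescent replicate 1 (0.059). Polr1d, named after its values were seen as the partner of Polr1c in both polymerases, had 18.1, 18.7 and 17.7 CPM in senescent and 12.2, 11.9 and 11.6 CPM in quiescent libraries (log2 fold change 0.61), in the other direction from Polr1c. Exosome and nuclease genes, which trim and degrade the precursor's spacers, gave 9 risen and 1 fallen of 18 (median 0.18; 1 and 5 under library totals), with Mphosph6 at 1.04, Exosc4 at 0.52 and Exosc8 at -0.22. Exosc4 did not pass under library totals (0.22, edgeR adjusted p = 0.11). That of Exosc8 was lost without senescent replicate 2 or quiescent replicate 2 or 3 (adjusted p 0.090, 0.11 and 0.11) and in DESeq2 (0.12). RNA polymerase III genes, for the enzyme that makes 5S ribosomal RNA and transfer RNAs, gave 9 risen and 5 fallen of 22 (median 0.05), against 4 and 12 under library totals. Polr3d (0.96) rose, and Polr3gl (-0.62) and Maf1 (-0.50), the gene of the polymerase III repressor, fell.

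**Figure D4:**
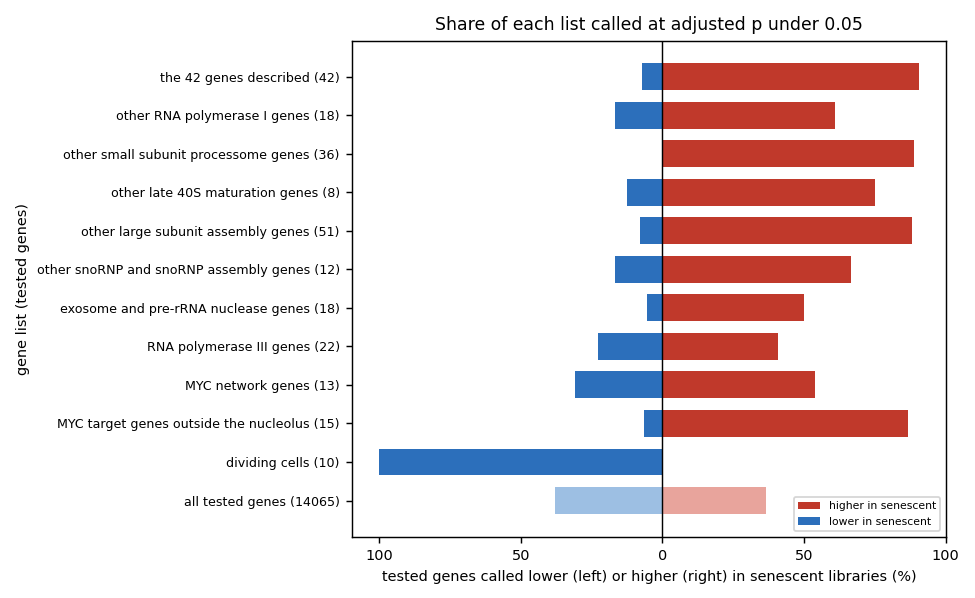
Share of each gene list called lower (left, blue) or higher (right, red) by edgeR in senescent libraries (adjusted p below 0.05), with the number of tested genes in brackets; the pale bars at the bottom are all tested genes (36.7% higher, 37.8% lower). The 42 genes and the 36 further processome genes are almost wholly on the right, and the genes of dividing cells are wholly on the left.

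The product of RNA polymerase I could be read only after ribosomal RNA depletion, and part of what is read is mature ribosomal RNA. How much the depletion removed is not known, and the ribosomal rows still held 79.8% to 82.8% of the gene counts. Rn45s held 73.9%, 75.5% and 73.9% of the gene counts in senescent replicates 1, 2 and 3, against 73.9%, 73.2% and 74.5% in quiescent ones. These shares overlap (exact two-sided permutation test, p = 0.4, smallest possible 0.1). Rn45s is itself most of the total it is divided by, here and under library totals, so a change in it would show little. In the TMM-scaled fit Rn45s had a log2 fold change of 0.31 (standard error 0.11, adjusted p = 0.020 in edgeR), but under library totals it was 0.01 (adjusted p = 0.93) and under upper quartile factors 0.22 (0.087). It also did not pass without senescent replicate 1 or 2 or quiescent replicate 1 or 2 (adjusted p 0.059, 0.076, 0.095 and 0.067). In the repeat table, ribosomal RNA was read under the names LSU-rRNA and SSU-rRNA, for the large and the small subunit. Scaled by the TMM-adjusted gene totals, both had a log2 ratio of 0.30 with every senescent library above every quiescent one (exact two-sided permutation test, p = 0.1 each, the smallest value 3 against 3 allows). Scaled by the plain gene totals, a choice made after seeing the data, the groups overlapped, with log2 ratios of 0.0037 for LSU-rRNA and -0.0048 for SSU-rRNA (exact p = 1 and 0.9). Those plain gene totals are mostly ribosomal RNA too, so this second scaling could show little of a change in ribosomal RNA. Counts of the repeat name U3, the small nucleolar RNA of the processome, were 284, 238 and 352 in senescent and 246, 198 and 233 in quiescent libraries. Scaled by the same library sizes they were 2.85, 2.66 and 3.42 per 1000000 counts in senescent libraries, against 2.31, 1.67 and 2.20 per 1000000 counts in quiescent libraries, without overlap (exact two-sided permutation test, p = 0.1). Over the plain gene totals they were 2.63, 2.25 and 3.21 in senescent and 2.62, 1.90 and 2.33 in quiescent libraries, which overlap (exact p = 0.4). Rnu3a, the U3 gene row, did not pass (log2 fold change 0.26 ± 0.33 SE). Rmrp, the RNA of the ribonuclease that cleaves the first internal spacer, rose by 0.30 ± 0.11 (SE) on the log2 scale (adjusted p = 0.030 in edgeR), but did not pass under library totals (0.0061, adjusted p = 0.965), under upper quartile factors (0.21, 0.10), without the filter on low counts (0.075) or without quiescent replicate 1 (0.094) or 3 (0.071). The repeat name 5S had 342, 276 and 394 counts in senescent and 446, 481 and 385 counts in quiescent libraries, and its TMM-scaled values overlapped (exact two-sided permutation test, p = 0.2), while over the plain gene totals all senescent libraries lay below all quiescent ones (exact p = 0.1).

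Several of the 42 genes carry small nucleolar RNAs in their introns. The basic GENCODE M21 annotation places 27 inside 7 of them (Dkc1, Gnl3, Ncl, Nop56, Nop58, Taf1d and Wdr43), of which 12 have a row in the gene table. These rows had a median of 19.5 counts over all 6 libraries together, and 1, Snord19 of Gnl3, passed the filter. Snord19 had 7, 4 and 14 counts in senescent libraries, against 9, 3 and 16 in quiescent libraries (log2 fold change 0.01 ± 0.58 SE, adjusted p = 0.99 in edgeR), while its host rose by 1.04. A difference in these intronic RNAs was not detectable with so few counts.

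**Figure D5:**
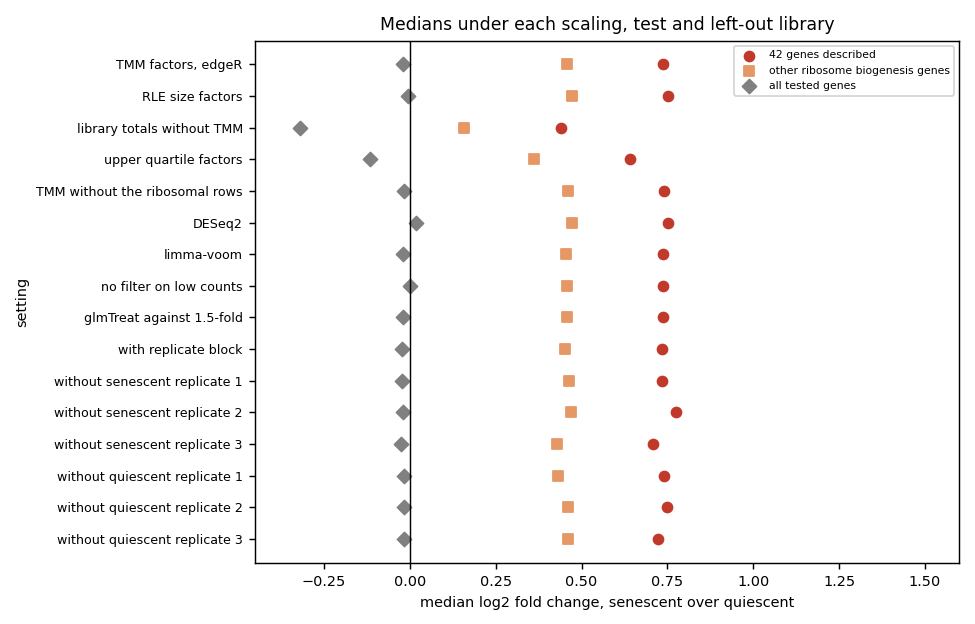
Median log2 fold change of the 42 genes (red circles), the 143 other ribosome biogenesis genes (orange squares) and all tested genes (grey diamonds) under the main setting (top), 9 alternatives and each library left out. The red circles lie between 0.44 and 0.78, and the 3 medians move left together under library totals and upper quartile factors.

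The scaling sets where 0 lies. Library totals without TMM put the median of all tested genes at -0.32 and upper quartile factors put it at -0.12, against -0.02 with TMM. The median of the 42 genes relative to that of all genes was 0.76 in each of these 3 settings. This sameness is no separate support, since a change of scaling moves all genes by nearly the same amount. Under library totals 30 of the 42 genes rose and 4 fell, where 21.0% and 52.9% of all tested genes did so.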

How the data were processed

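The authors deposited whole-number counts for gene symbols and for RepeatMasker repeat names in 6 libraries. Per the labels' protocols, ribosomal RNA was removed, the library kit was directional and reads were paired, 100 bp each. The submitters' processing notes name mm10, edgeR 3.32.1 and limma 3.46.0; aligner, counting tool and use of strand were not stated there. Depth was 93736593 to 109706025 gene counts per library, and reads without molecular identifiers cover counting error only. The test was edgeR 4.0.16 under R 4.3.3: filterByExpr with a minimum count of 10, TMM factors, robust quasi-likelihood F test without a block, and Benjamini-Hochberg adjustment over 14065 genes at 0.05. It was tested on simulated data. The standard error (SE) is the absolute log2 fold change over the root of F. Differences between libraries of a group used log2 of CPM plus 0.5. Alternatives were DESeq2 1.42.0, limma-voom (limma 3.58.1), other scalings, no filter, a test against 1.5-fold, a replicate block and leaving out each library. In chi-square comparisons no replicate pair agreed within sampling noise. Repeat counts used the gene table's library sizes. Positions and exon lengths came from the basic GENCODE M21 annotation (GRCm38), promoters from RefSeq (GRCm38.p6). Named genes were all 42, up to 2 risen and 2 fallen per other list at a mean log2 CPM of at least 0, and check genes; other names were chosen after their values were seen. 1 gene that this rule names is not reported here. The 42 genes and all lists were chosen with earlier results of these data known.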

Additional observations from a re-analysis of the deposited data

How the results depend on the processing

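Of the 42 genes, the same 38 rose under RLE factors, upper quartile factors, TMM without the ribosomal rows, DESeq2, limma-voom, no filter on low counts and the replicate block. Against 1.5-fold, 24 of the 42 rose and 0 fell, as did 34 and 1 of the other ribosome biogenesis genes and 2138 and 2460 of all genes. Under library totals without TMM, 2952 genes rose in all, and 61 of the other biogenesis genes rose and 19 fell; Tcof1 turned to -0.23 there and to -0.022 under upper quartile factors. DESeq2 called 7 of the other biogenesis genes lower, against 11 in edgeR. With each library left out in turn, 38 to 38 of the 42 genes rose and 1 to 3 fell, and 107 to 112 of the other biogenesis genes rose and 7 to 11 fell; the single fallen gene stood without senescent replicate 1, and 7 without quiescent replicate 2. The cause of these changes was not tested, except that a 1.5-fold threshold asks for a larger change. The labels share replicate numbers between groups. Deviations of same-numbered libraries had r = 0.088, -0.0043 and 0.103 over genes, and not every library correlated best with its own number. With 3 libraries per group, this cannot decide whether same-numbered libraries shared a culture, animal or batch. With the replicate block 38 of the 42 genes rose and 3 fell, with 5124 and 5281 of all genes. The small nucleolar RNA rows held few counts, and the cause of this was not tested.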
